A study of Mus musculus with 6 samples.

Results

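Alveolar type 1 cells are the thin, flat epithelial cells across which gas passes between air and blood. The genes described here are 8 markers of that cell, chosen by name: Ager, Hopx, Pdpn, Aqp5, Rtkn2, Akap5, Clic5 and Cldn18. All 8 had a row among the 26890 genes listed, and all 8 were among the 13473 genes with enough counts to test. They were measured in lung cells of C57BL/6 wild-type (WT) mice, harvested at day 3 after C1q was placed in the trachea at 20 µg per mouse (n = 3) or labelled Saline (n = 3). C1q is the recognition component of the classical complement pathway. Lungs were digested with Liberase and DNase I, and the cells between the layers of a Percoll gradient were lysed and read as libraries of transcript 5′ ends. The same treatment text, on C1q, stands with all 6 libraries, and only the treatment label marks 3 of them as Saline. The labels do not say whether each library is a separate animal.

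Type 1 cells cover most of the alveolar surface, lie against the capillary wall on a shared basement membrane, and are renewed by alveolar type 2 cells, which make surfactant and can flatten into type 1 cells after injury. Their markers belong to different parts of the cell: a pattern receptor at the basal membrane (Ager), an apical mucin-like glycoprotein (Pdpn), a water channel (Aqp5), a tight junction protein (Cldn18), scaffold and signalling proteins (Akap5, Rtkn2, Clic5) and a nuclear cofactor (Hopx). Type 1 cells are thin, wide and easily lost when tissue is digested, and the libraries were made from suspensions of mixed cells.

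Total counts were 2227619 to 3650793 per library, of which the 8 genes together took 0.306% to 0.327% in C1q libraries and 0.320% to 0.343% in saline libraries. Each gene had between 161 and 4706 counts in each library. The epithelium of the lung was present in every library: the surfactant gene Sftpc stood at 21460 to 24418 CPM (values in which each count is divided by the size of its library, here scaled by the trimmed mean of M values) in C1q libraries and 15953 to 32862 CPM in saline libraries, and the epithelial adhesion gene Epcam at 92.8 to 106.5 CPM in C1q libraries and 71.0 to 98.4 CPM in saline libraries. Saline replicate 2 had the most Sftpc and also the most Scgb1a1, the secretory protein of airway club cells, at 23044 CPM, against 6138 to 10521 CPM in C1q libraries and 7985 and 10705 CPM in the other saline libraries. In mixed cells, fewer cells of a type and less RNA per cell cannot be told apart.

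The 8 type 1 genes showed no change after C1q that passed the test. By edgeR's quasi-likelihood test with Benjamini-Hochberg adjustment over all 13473 genes, 0 of 8 had an adjusted p under 0.05, where 0.0297% of all genes did. DESeq2 and limma-voom also called 0 of 8. At an unadjusted p under 0.05 there was 1 of 8, Hopx, with a lower mean after C1q, beside 8.16% of all genes in either direction and 3.94% in the lower one. The estimated folds of the other 7 lay between 0.852 and 1.23, and the 95% interval of each of these 7 included no change. Of the 8 genes, 5 had a negative and 3 a positive log2 fold change, beside 6973 and 6500 of the 13473 genes. The median was -0.08, beside -0.01 over all genes tested. Summed over the 8 genes, levels were 3218 to 3301 CPM in C1q libraries, within the 3081 to 3604 CPM of saline libraries. Intervals given for single genes are not adjusted for the number of genes tested, and an interval that includes no change does not show that the levels were equal.

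**Figure D1:**
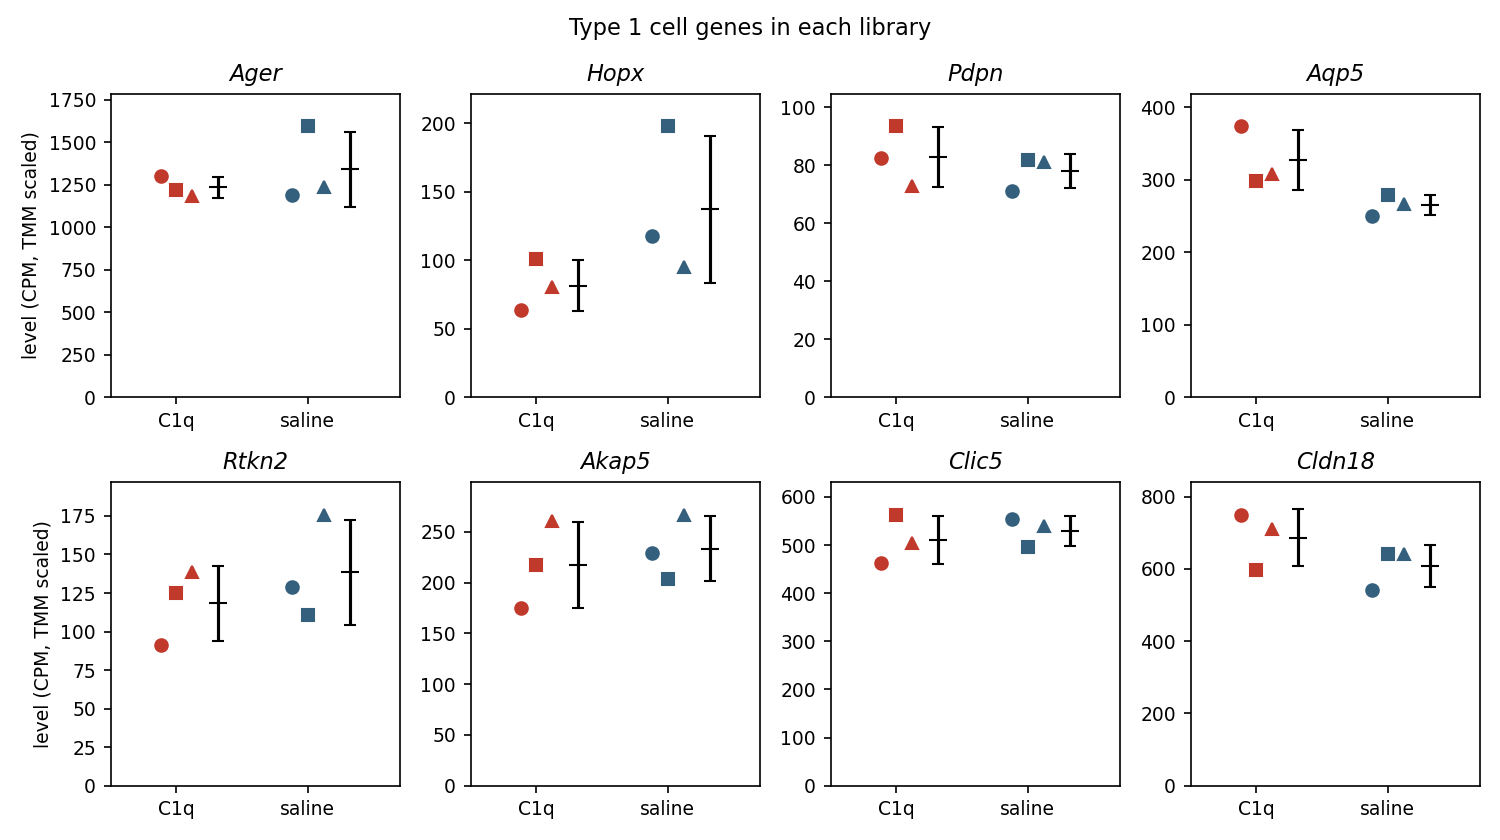
Level of each type 1 gene in CPM (vertical axis from 0) in 3 C1q libraries (red) and 3 saline libraries (blue); circles, squares and triangles are replicates 1 to 3 of each group, and the bar to the right is mean ± SD. Aqp5 is the 1 gene of 8 whose groups do not overlap, and Hopx and Ager are highest in saline replicate 2.

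Ager encodes RAGE, a receptor of the immunoglobulin superfamily that binds glycated proteins, S100 proteins and HMGB1, and that is far more abundant in type 1 cells than in most other cells of the body. On GRCm38 the gene lies on chromosome 17 from 34597862 to 34600936, on the plus strand, and is annotated as protein-coding (ENSMUSG00000015452.14). Its levels were 1301, 1221 and 1182 CPM in C1q replicates 1 to 3 and 1189, 1596 and 1239 CPM in saline replicates 1 to 3. The C1q libraries lay close together, within the saline range but for replicate 3 just under it, and saline replicate 2 stood above all the others. Ager averaged 1235 ± 60.8 CPM after C1q and 1341 ± 222.0 CPM after saline (SD, n = 3 each), a log2 fold change of -0.12 ± 0.17 (SE, adjusted p = 0.855 by edgeR). The fold was 0.921, with a 95% interval of 0.714 to 1.19. Without saline replicate 2 the log2 fold change was 0.031, so its direction rested on that library.

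Pdpn, podoplanin, is a small glycoprotein that is linked to the cell cortex through ezrin and moesin and that binds the platelet receptor CLEC-2. It also marks lymphatic endothelium and mesothelium. The gene spans 143267431 to 143299564 on chromosome 4, minus strand. Pdpn stood at 82.4, 93.5 and 72.7 CPM in C1q libraries and at 71.0, 81.8 and 81.1 CPM in saline libraries. The groups overlapped through C1q replicate 3, which lay among the saline libraries, while C1q replicates 1 and 2 lay above all of them. The log2 fold change was 0.09 ± 0.15 (SE, edgeR adjusted p = 0.885), and -0.0017 without C1q replicate 2, and the fold had a 95% interval of 0.842 to 1.35. Among 6 lymphatic genes 0 passed over all genes and 1, Mmrn1, had an unadjusted p under 0.05. The summed level of the 6 was 303 to 415 CPM in C1q libraries and 293 to 455 CPM in saline libraries. Lyve1 was the larger part of that sum in every library, at 190 to 283 CPM after C1q and 196 to 345 CPM after saline. Prox1 stood at 4.15 to 7.41 CPM after C1q and 5.79 to 6.48 CPM after saline. The mesothelial genes Msln, Upk3b, Upk1b and Muc16 summed to 87.6 to 103.7 CPM in C1q libraries and 60.5 to 104.5 CPM in saline libraries. They did not share 1 direction. At an unadjusted p under 0.05 by edgeR, 1 had a positive log2 fold change, Msln (1.03 ± 0.32), and 1 a negative, Upk3b (-0.89 ± 0.37). The part of either cell type in the Pdpn level was not tested.

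Aqp5 encodes aquaporin 5, the water channel of the apical membrane of type 1 cells, which is also found in airway glands. It lies on chromosome 15 from 99590782 to 99594829, plus strand. Its levels were 374, 299 and 308 CPM in C1q libraries and 250, 279 and 266 CPM in saline libraries. All 3 C1q libraries lay above all 3 saline libraries, which was so for 1 of the 8 genes and for 8.12% of all genes. The reverse, all C1q libraries below all saline libraries, was so for 0 of the 8 and for 5.96% of all genes, and the share in either direction was 14.1%. Aqp5 averaged 327 ± 41.0 CPM after C1q and 265 ± 14.3 CPM after saline (SD, n = 3 each). The log2 fold change was 0.30 ± 0.15 (SE) and did not pass (edgeR adjusted p = 0.615), with a 95% interval of the fold from 0.979 to 1.56. Without C1q replicate 1, which had the highest level, the log2 fold change was 0.19.

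Because the libraries read 5′ ends, the windows around annotated starts are shown for the 2 genes with the smallest p-values, Aqp5 and Hopx. RefSeq windows of 250 bases before to 50 bases after a start on GRCm38.p6 were found for 7 of the 8 genes, 9 windows in all, and were searched on both strands for 5 short motifs. These were the GC box, spelled GGGCGG, the core CTTGAG bound by NKX2-1, a regulator of lung epithelial identity, and the cores GGAATG for TEAD factors, TGANTCA for AP-1 and TATAAA for the TATA box. Capitals mark the matches, 3 GC boxes at Aqp5 and 1 NKX2-1 core in each of the Hopx windows.
Aqp5, chr15:99590778-99591077, plus strand: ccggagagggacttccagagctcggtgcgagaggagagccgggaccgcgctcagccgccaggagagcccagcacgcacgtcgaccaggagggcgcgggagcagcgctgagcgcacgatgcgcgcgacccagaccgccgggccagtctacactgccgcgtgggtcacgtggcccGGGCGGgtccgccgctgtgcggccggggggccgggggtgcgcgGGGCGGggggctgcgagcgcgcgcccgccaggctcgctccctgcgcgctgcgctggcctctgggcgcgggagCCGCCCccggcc
Hopx, outer start, chr5:77115074-77115373, minus strand: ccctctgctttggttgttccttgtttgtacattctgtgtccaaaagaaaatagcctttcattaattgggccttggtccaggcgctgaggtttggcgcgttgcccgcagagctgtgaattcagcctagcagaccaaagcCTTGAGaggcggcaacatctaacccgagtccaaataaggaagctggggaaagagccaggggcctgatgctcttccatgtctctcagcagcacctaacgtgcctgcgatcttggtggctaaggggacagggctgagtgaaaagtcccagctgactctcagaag
Hopx, inner start, chr5:77095218-77095517, minus strand: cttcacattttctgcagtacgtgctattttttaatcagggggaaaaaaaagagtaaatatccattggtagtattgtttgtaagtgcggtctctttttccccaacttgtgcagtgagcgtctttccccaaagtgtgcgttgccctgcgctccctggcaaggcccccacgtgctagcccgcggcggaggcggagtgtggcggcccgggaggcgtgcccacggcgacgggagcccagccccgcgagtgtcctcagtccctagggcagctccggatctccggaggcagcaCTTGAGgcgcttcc
A GC box was in 4 of the 9 windows and in 35.7% of all 32851 windows of the same length. The NKX2-1 core was in 2 of 9, both at Hopx, and in 15.9% of all windows. The TEAD, AP-1 and TATA letters were in 0 of 9 windows, and in 14.7%, 7.81% and 13.6% of all windows. The counts are given per gene, so they do not say which start was used. Aqp5 has 6 distinct annotated starts and Hopx 3, so windows were not placed at every start. Most of the Aqp5 window lies within the annotated gene, which begins at 99590782.

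Hopx encodes an atypical homeodomain protein that binds no DNA itself and acts through partners such as SRF; in the alveolus it marks type 1 cells and cells on the way to that state, and it is also found in some lymphocytes. The gene spans 77086988 to 77115121 on chromosome 5, minus strand, with 3 annotated transcripts and 3 distinct starts. Hopx stood at 63.6, 100.5 and 80.4 CPM in C1q libraries and at 118, 198 and 95.2 CPM in saline libraries. C1q replicate 2 lay above saline replicate 3, and otherwise the C1q libraries were below the saline libraries. The means were 81.5 ± 18.5 CPM after C1q and 137.1 ± 53.9 CPM after saline (SD, n = 3 each). Its log2 fold change of -0.75 ± 0.27 (SE) was the largest in size of the 8, larger than that of 93.2% of all genes tested, and it did not pass (edgeR unadjusted p = 0.0168, adjusted p = 0.563). The fold was 0.595, with a 95% interval of 0.396 to 0.892. With no filter on low counts, a fit in which edgeR called 373 genes in place of 4, Hopx passed at a log2 fold change of -0.72 (adjusted p = 0.0154). Over all 13 alternatives the adjusted p of Hopx ran from 0.0154 to 0.854, and the log2 fold change from -0.95 to -0.39, the smallest being without saline replicate 2.

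The level of Hopx was also set against other genes of the same libraries. As log2 of its ratio to Sftpc, Hopx was at -8.58, -7.77 and -8.06 in C1q libraries and at -7.53, -7.38 and -7.39 in saline libraries. All C1q libraries were thus below all saline libraries. Set against Sftpc in the same way, this was so for 1 of the 8 genes, Hopx, and for 2.81% of all genes. The same held for the ratio to the summed level of 12 type 2 genes, with a mean difference of -0.78 on the log2 scale. By that ratio it was so for 1 of the 8 genes and for 4.36% of all genes. Sftpc was the larger part of that sum in every library, as with 24418 of 40088 CPM in C1q replicate 1 and 15953 of 27220 CPM in saline replicate 3. The ratio to the sum is therefore not a comparison separate from the ratio to Sftpc. Against the sum of the other type 1 genes of the 8 the groups of Hopx overlapped. Against Ager they overlapped too: the log2 ratio was -4.35, -3.60 and -3.88 in C1q libraries and -3.33, -3.01 and -3.70 in saline libraries. With 3 libraries against 3, no exact test of such a ratio can go below p = 0.1, and none was made. The sum over 5 T cell genes was 34.3 to 47.8 CPM in C1q libraries and 40.5 to 64.0 CPM in saline libraries. Scgb1a1 had its highest level in saline replicate 2, as Hopx did, and C1q replicate 2 was the highest of its group for both genes. The part of T cells or of airway cells in the Hopx level was not tested. The antisense gene Hopxos overlaps Hopx and had 0 to 3 counts per library.

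Rtkn2 encodes a signalling protein that is found in type 1 cells and in some lymphocytes. It lies on chromosome 10 from 67979570 to 68059740, plus strand. Its levels were 91.0, 125 and 139 CPM in C1q libraries and 129, 111 and 176 CPM in saline libraries. The spread within each group was wide, with a coefficient of variation of 20.8% in C1q libraries and 24.4% in saline libraries, where counting alone gives 4.61% to 6.05%. The log2 fold change was -0.23 ± 0.21 (SE, edgeR adjusted p = 0.762), and -0.022 without saline replicate 3. The fold had a 95% interval of 0.617 to 1.18.

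Akap5 is a scaffold that holds protein kinase A, calcineurin and adenylyl cyclase at the membrane. It lies on chromosome 12 from 76324891 to 76334153, plus strand. Its levels were 175, 217 and 260.5 CPM in C1q libraries and 230, 204 and 267 CPM in saline libraries. The lowest library was C1q replicate 1 and the highest saline replicate 3, the same as for Rtkn2. The log2 fold change was -0.10 ± 0.18 (SE, edgeR adjusted p = 0.888), and turned to 0.033 without C1q replicate 1 and to 0.0032 without saline replicate 3. Of 9 partner genes tested, among them the regulatory subunits Prkar2a at a log2 fold change of -0.0067 and Prkar2b at 0.17, 0 passed over all genes by edgeR and 0 had an unadjusted p under 0.05.

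Clic5 is a chloride intracellular channel family protein that associates with ezrin and the actin cortex. It spans 44188584 to 44280172 on chromosome 17, plus strand. Its levels were 463, 563 and 504 CPM in C1q libraries and 553, 495 and 539 CPM in saline libraries. Its values were the closest together of the 8 genes, with a standard deviation over the 6 libraries of 0.11 on the log2 scale. The log2 fold change was -0.05 ± 0.15 (SE, edgeR adjusted p = 0.938), and 0.014 without C1q replicate 1, with a 95% interval of the fold from 0.768 to 1.21. Its paralogues Clic1, Clic3, Clic4 and Clic6 had log2 fold changes of -0.16 to 0.15, and 0 of 4 passed over all genes or had an unadjusted p under 0.05.

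Cldn18, claudin 18, is the main claudin of alveolar tight junctions and is made by type 1 and type 2 cells. It spans 99689461 to 99717267 on chromosome 9, minus strand. Its levels were 751, 598 and 709 CPM in C1q libraries and 540, 640 and 641 CPM in saline libraries. C1q replicates 1 and 3 were above all saline libraries and C1q replicate 2 was between them. The log2 fold change was 0.18 ± 0.16 (SE, edgeR adjusted p = 0.758), with a 95% interval of the fold from 0.887 to 1.44. Leaving out C1q replicate 2 gave 0.27, while 0.11 was left without C1q replicate 1 and 0.10 without saline replicate 1. Of 12 other junction genes, 0 passed over all genes and 2 had an unadjusted p under 0.05, both with higher means after C1q: Cldn4 at a log2 fold change of 0.81 ± 0.30 (SE), from a low level of 13.2 ± 3.31 CPM after C1q and 7.48 ± 1.45 CPM after saline, and Cdh1, E-cadherin, at 0.35 ± 0.14 (SE). The reads of the antisense genes that overlap Rtkn2 and Cldn18, which are not analysed here, cannot be told apart from those of their partners, because the sources used here do not say how strand was handled.

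**Figure D2:**
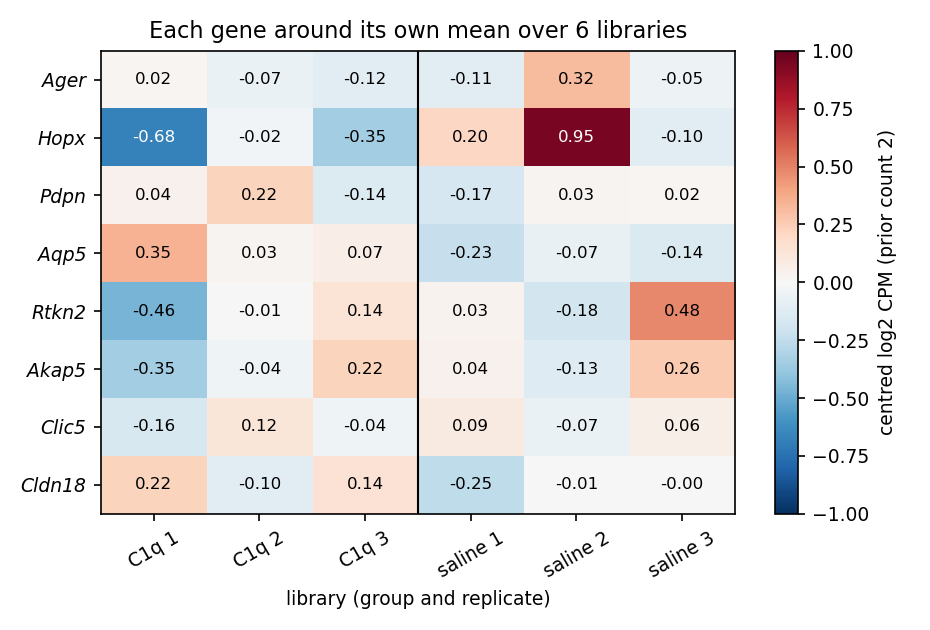
Log2 CPM of each type 1 gene (rows) in each library (columns, C1q left of the line), centred on the gene's own mean over 6 libraries; red is above and blue below that mean. Values run from -0.68 (Hopx in C1q replicate 1) to 0.95 (Hopx in saline replicate 2), and the rows do not share 1 order of libraries.

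The 8 genes were not high and low in the same libraries. In C1q replicate 1, Aqp5 and Cldn18 were at their highest while Hopx, Rtkn2, Akap5 and Clic5 were at their lowest. In saline replicate 2, Ager and Hopx were at their highest, and Rtkn2 and Akap5 were lower than in the other saline libraries. On the log2 scale, C1q replicate 1 ran from -0.68 for Hopx to 0.35 for Aqp5 around each gene's own mean. The standard deviation of a gene over the 6 libraries ran from 0.11 for Clic5 and 0.14 for Pdpn to 0.32 for Rtkn2 and 0.55 for Hopx. The mean profile of the 8 genes was nearly flat, from -0.13 in C1q replicate 1 to 0.10 in saline replicate 2. Of 12484 other genes at a mean of at least 5 CPM, those whose centred log2 CPM had the smallest root mean square difference from this profile over the 6 libraries were Utp15 (0.026), Usp19 (0.028), Sf1 (0.035), Nt5c2 (0.035) and Rgl2 (0.037). Clic5, the nearest of the 8 to their own mean, was at 0.10 by the same measure and Hopx, the farthest, at 0.45.

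A longer list of type 1 genes gave no call either. Of 16 others, 0 passed over all genes by edgeR and the median log2 fold change was 0.01. By the same test 3 had an unadjusted p under 0.05, beside 8.16% of all genes. All C1q libraries were above all saline libraries for 2 of the 16, Gprc5a and Egfl6, beside 8.12% of all genes. They were below all saline libraries for 1, Emp2, beside 5.96% of all genes. Emp2, a membrane protein of type 1 cells, was at 906 ± 40.9 CPM after C1q and 1014 ± 81.7 CPM after saline (SD, n = 3 each), a log2 fold change of -0.16 ± 0.15 (SE), with all C1q libraries below all saline libraries. The part of other cells of the mixed suspension in the Emp2 level was not tested. Igfbp2, a binding protein of insulin-like growth factors, was at 0.05 ± 0.14. The smallest p-values were those of Ndnf, a secreted glycoprotein, and Egfl6, a matrix protein with EGF-like repeats. Ndnf stood at 206, 129 and 232 CPM in C1q libraries and 107, 85.8 and 147 CPM in saline libraries, with a log2 fold change of 0.74 ± 0.25 (SE, edgeR adjusted p = 0.538). Egfl6 stood at 133.0, 101.9 and 132.7 CPM in C1q libraries and 99.3, 89.9 and 87.0 CPM in saline libraries, all C1q libraries being above all saline libraries, with a log2 fold change of 0.41 ± 0.16 (SE, adjusted p = 0.598). The other gene with an unadjusted p under 0.05 was Pxdc1, at -0.40 ± 0.17. Col4a3 and Col4a4, chains of the basement membrane collagen shared with the capillary, were at -0.02 ± 0.20 and -0.16 ± 0.19. Vegfa, the endothelial growth factor that type 1 cells supply to the capillaries, was at -0.30 ± 0.17.

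**Figure D3:**
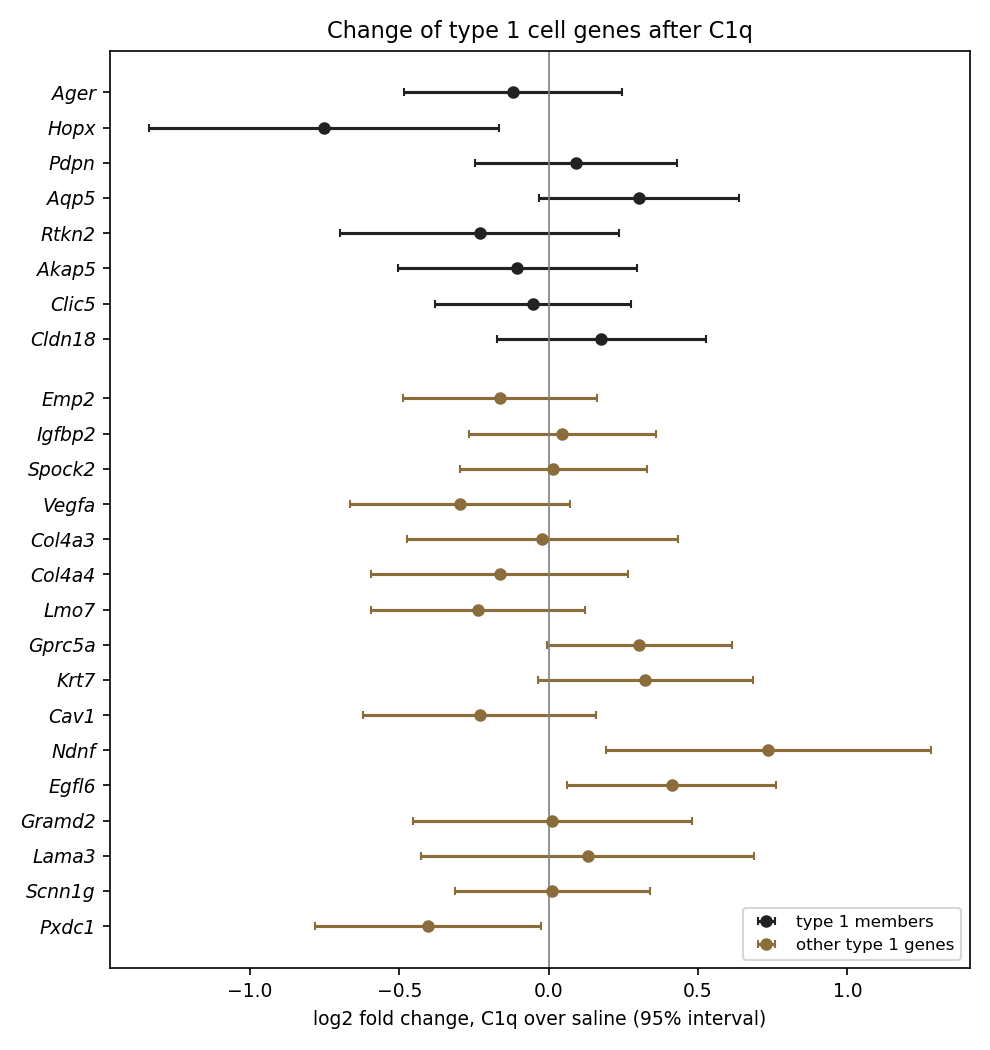
Log2 fold change of C1q over saline (horizontal axis) with its 95% interval, not adjusted for the number of genes, for the 8 type 1 genes (black) and 16 others of the type 1 cell (brown), n = 3 libraries per group. The intervals of Hopx, Ndnf, Egfl6 and Pxdc1 leave out 0, and none of these genes passed the adjusted test.

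Most genes of the type 2 and pan-epithelial lists had a positive log2 fold change, also without a call. For 12 type 2 genes the median log2 fold change was 0.22 and 9 were positive. By edgeR 0 passed over all genes and 1, Sftpd, had an unadjusted p under 0.05 (0.44 ± 0.18). Sftpc was at -0.06 ± 0.26 and Sftpb at 0.17 ± 0.19. The summed type 2 genes ranged from 37452 to 40088 CPM in C1q libraries and from 27220 to 50625 CPM in saline libraries. For 10 pan-epithelial genes the median was 0.27 and 9 were positive. Here too 0 passed over all genes, and 1, Cdh1 at 0.35 ± 0.14, had an unadjusted p under 0.05, with Epcam at 0.28 ± 0.16. Their sum was 944 to 1030 CPM in C1q libraries and 753 to 909 CPM in saline libraries, with no overlap between the groups. Relative to that sum, Ager was lower in all C1q libraries than in all saline libraries: the log2 ratio was 0.34, 0.32 and 0.32 after C1q and 0.60, 0.81 and 0.72 after saline. By this ratio all C1q libraries were below all saline libraries for 2 of the 8 genes, Ager and Hopx, and for 21.8% of all genes. Relative to the sum of the other type 1 genes of the 8, all C1q libraries were above all saline libraries for 1, Aqp5, and relative to the sum of the 8 for 8.27% of all genes. Relative to the pan-epithelial sum the difference of Aqp5 was 0.02.

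Genes of the transitional state, a cell on the way between type 2 and type 1 that carries Krt8, include Clu, which had the smallest p-value of the epithelial lists. Of the 10, which share Krt8 with the pan-epithelial list, 8 were positive, the median log2 fold change was 0.33, and 5 had an unadjusted p under 0.05, all with higher means after C1q. Of all 13473 genes tested, 6500 were positive, and 568 had an unadjusted p under 0.05 by edgeR with a positive log2 fold change. None of the 10 passed over all genes by edgeR, while DESeq2 called 1 of them, Clu. Clu, a secreted chaperone also made by other cells, stood at 358, 172 and 289 CPM in C1q libraries and 133.4, 132.8 and 108.3 CPM in saline libraries, a log2 fold change of 1.13 ± 0.24 (SE, edgeR adjusted p = 0.277). Itgb6, the epithelial integrin chain that activates latent TGF-beta, stood at 41.2, 29.3 and 49.7 CPM in C1q libraries and 26.0, 22.7 and 23.9 CPM in saline libraries, a log2 fold change of 0.72 ± 0.21 (SE, adjusted p = 0.501). Krt8 itself was at 0.26 ± 0.14 (adjusted p = 0.626). Of 11 tested regulators of alveolar cell fate, 0 passed over all genes and 1, the forkhead factor Foxa1, had an unadjusted p under 0.05. It stood at 16.9, 14.1 and 13.99 CPM in C1q libraries and 18.6, 28.7 and 27.3 CPM in saline libraries, with no overlap between the groups, a log2 fold change of -0.71 ± 0.23 (SE, adjusted p = 0.532). Nkx2-1 was at 0.13 ± 0.15, Cebpa at 0.24 ± 0.19 and Yap1, which with Wwtr1 (TAZ) promotes type 1 identity, at 0.04 ± 0.14.

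**Figure D4:**
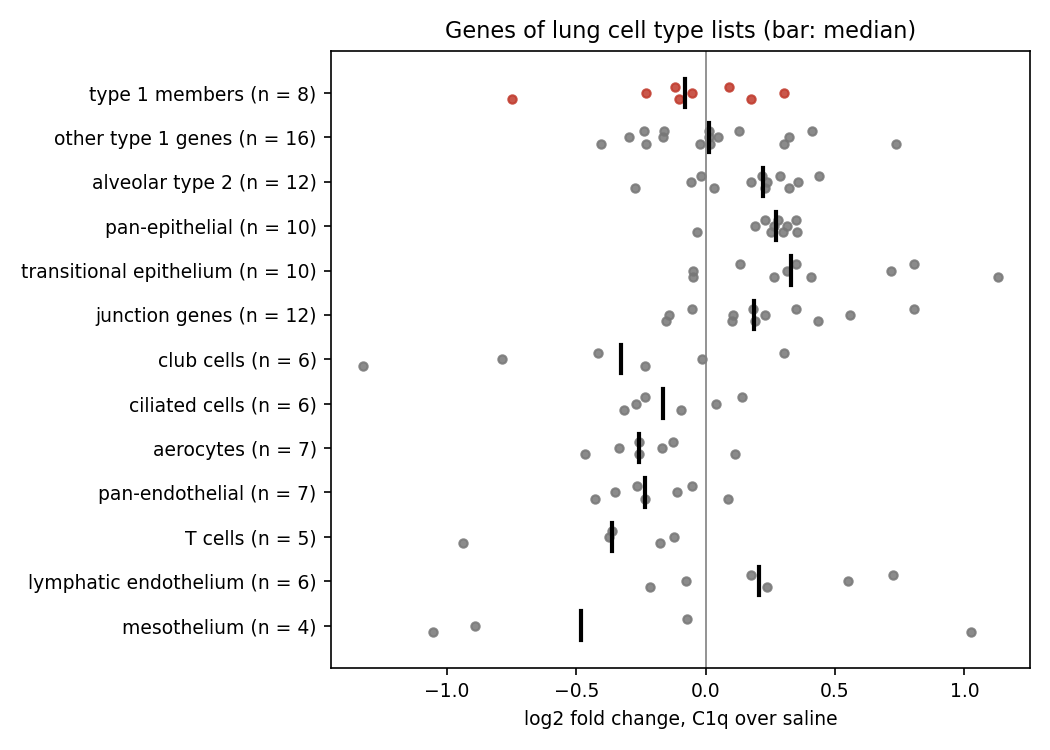
Log2 fold change of C1q over saline (horizontal axis) for every tested gene of 13 lists (rows; n is the number of genes, points are shifted vertically only to separate them); the bar is the list's median. The type 1 genes (red) lie on both sides of 0 with a median of -0.08. The medians of the 13 lists run from -0.48 (mesothelium) to 0.33 (transitional epithelium), with the pan-epithelial genes at 0.27 and the pan-endothelial genes at -0.24.

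The ligands and partners of the type 1 genes gave no call. Of 11 tested, 0 passed over all genes by edgeR and 1, Cd44, which associates with podoplanin, had an unadjusted p under 0.05 (log2 fold change 0.31 ± 0.14). The RAGE ligands S100a8 and S100a9 were at 0.14 ± 0.47 and 0.26 ± 0.31, at levels under 30 CPM in every library, Hmgb1 at -0.04 ± 0.18 and Diaph1, which binds the tail of RAGE, at 0.25 ± 0.15. In the ion transport list, 0 of 8 passed over all genes and 1, the sodium, potassium and chloride carrier Slc12a2, had an unadjusted p under 0.05 (0.40 ± 0.15), while the epithelial sodium channel subunits Scnn1a and Scnn1b were at -0.07 ± 0.17 and -0.27 ± 0.19. Of the other aquaporins only Aqp1 and Aqp4 had enough counts to test, at -0.0073 ± 0.18 and 0.13 ± 0.39.

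The cells around the alveolar epithelium were compared in the same fit. Of 7 genes of aerocytes, the capillary cells that face type 1 cells, 0 passed and 1, Fibin, had an unadjusted p under 0.05 (-0.47 ± 0.19). The median of the 7 was -0.26, with Ednrb at -0.26 ± 0.17 and Car4 at 0.11 ± 0.21. Of 7 pan-endothelial genes 0 passed, with a median of -0.24 and Pecam1 at -0.24 ± 0.15. Of 6 club cell genes 0 passed and 1, Scgb3a1, had an unadjusted p under 0.05 (-1.32 ± 0.44), while Scgb1a1 was at -0.79 ± 0.36. Of 6 ciliated cell genes 0 passed, with a median of -0.16 and Foxj1 at 0.04 ± 0.16. The basal cell list had 1 gene with enough counts, the keratin Krt15, at 13.9 ± 9.36 CPM after C1q and 1.73 ± 1.74 CPM after saline (SD, n = 3 each). Krt15 stood at 24.3, 10.9 and 6.32 CPM in C1q libraries and 0.643, 0.810 and 3.74 CPM in saline libraries. In saline replicates 1 and 2 it was under the level of 3 counts. Its log2 fold change of 3.03 ± 0.66 did not pass by edgeR (adjusted p = 0.281) and was called by DESeq2. Of 5 T cell genes 0 passed, and 1, Cd3e, had an unadjusted p under 0.05 (-0.94 ± 0.42), and of 4 mesothelial genes 0 passed, with Msln at 1.03 ± 0.32 and Upk3b at -0.89 ± 0.37. Of 6 fibroblast genes 0 passed by edgeR, with Col1a1 at 0.99 ± 0.20 and Col1a2 at 0.86 ± 0.16, both called by DESeq2. Genes induced by tissue dissociation summed to 6927 to 7009 CPM in C1q libraries and 7916 to 8630 CPM in saline libraries, with no overlap between the groups, and 0 of 10 passed. Hspa1b, at -0.61 ± 0.18, and Egr1, at -0.40 ± 0.14, had an unadjusted p under 0.05, and Fos was at -0.25 ± 0.15. The part of that difference in the levels of the type 1 genes was not tested.

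Across these 21 lists, 154 genes other than the 8 were tested and 0 passed by edgeR, with a smallest adjusted p of 0.231. DESeq2 called 4, beside 32 over all genes, and limma-voom 0, beside 3. At an unadjusted p under 0.05 by edgeR there were 16 genes with a positive and 8 with a negative log2 fold change. Over all 13473 genes tested these counts were 568 and 531.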

How the data were processed

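The authors deposited raw counts, 1 whole number for each gene symbol in each library. Per the submitters' processing notes, the tools were cutadapt 2.1.0 and Bowtie2 2.4.2 and the build was GRCm38. How reads were assigned to genes and strands, with which annotation, and whether molecules were collapsed is not given in the sources searched. The absolute levels of different genes were therefore not compared. Ratios and sums of genes were compared only between libraries and groups.

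Samples were grouped by their treatment label and numbered 1 to 3 within a group in order of deposition; these numbers pair nothing. None of the 15 pairs matched within sampling noise (chi-square per degree of freedom 5.20 to 16.7), so each library counts as 1 sample. P-values measure the spread between these samples, which may be technical.

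In R 4.3.3, edgeR 4.0.16 kept 13473 genes by filterByExpr, scaled them by TMM and tested them by the quasi-likelihood test, two-sided, with treatment as the only term and Benjamini-Hochberg adjustment (threshold 0.05). Each SE is the size of the log2 fold change over the square root of F. Centred values are log2 CPM with a prior count of 2. The code was tested on simulated data. Alternatives were DESeq2 1.42.0, limma-voom (limma 3.58.1), other scalings and filters, and each library left out. Positions are GENCODE M21 on GRCm38.

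The 8 genes, the lists and the alternatives were chosen with earlier results of these data known. The rule for genes named covered the 8, the first 2 and the 2 with the smallest p-value of each list, and the 5 with the most similar profile; others were chosen after their values were seen. A level of 3 counts is 0.822 to 1.35 CPM, depending on the library, far under the levels of the 8 genes.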

Additional observations from a re-analysis of the deposited data

How the results depend on the processing

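Of 104 values of the 8 genes under 13 alternatives each, 99 kept their direction, and the 5 that turned were those of Ager (0.031 without saline replicate 2), Pdpn (-0.0017 without C1q replicate 2), Akap5 (0.033 without C1q replicate 1 and 0.0032 without saline replicate 3) and Clic5 (0.014 without C1q replicate 1). With 1 library left out, log2 fold changes ran from -0.20 to 0.031 for Ager, from -0.0017 to 0.18 for Pdpn, from -0.25 to 0.033 for Akap5 and from -0.13 to 0.014 for Clic5. The number of the 8 genes past the threshold was 0 under every alternative but 1: with no filter on low counts it was 1, Hopx. That setting gave 373 calls over all genes, against 4 as reported, and DESeq2 gave 32. Leaving out 1 library gave 0 (without saline replicate 1) to 10 (without saline replicate 3), with 1 and 2 without C1q replicates 1 and 2. Among the other lists, no filter gave 9 calls and DESeq2 4, and leaving out 1 library gave 0 to 1. Groups that do not overlap were found for 2 of the 8 genes, Aqp5 and Hopx, with library size only, where 12.5% of all genes did so, and for 1 to 3 with 1 library left out, where 22.3% to 27.6% of all genes did so. By the ratio to other epithelial genes the count was 2 with the pan-epithelial sum and 1 with the type 2 sum, all with C1q libraries below, where 21.8% and 4.36% of all genes were below. The cause of these differences was not tested. The alternatives for the other lists, and leaving out a library in the count of groups that do not overlap, were chosen after seeing the data. No paired analysis was possible because the labels give the groups no shared replicate numbers. Hopx and Pdpn, with 161 to 489 counts per library, are the least precisely counted of the 8.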
